A study of Equus asinus with 2 samples.

Results

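The 10 genes described here write, copy, erase or protect DNA methylation, and they were followed in germ cells and somatic cells of the fetal donkey (Equus asinus). They are DNMT1, UHRF1, DNMT3A, DNMT3B, DNMT3L, TET1, TET2, TET3, TRIM28 and ZFP57, chosen by symbol, and all 10 were among the 38517 features of the count matrices. The series holds 2 droplet single-cell RNA libraries: tissue labelled ovarian at 8 weeks of gestation, and mesonephric with gonadal tissue at 4 weeks. No treatment, genotype or strain is named, the labels do not give the number of fetuses pooled in a library, and they call the cells of both libraries germ cells although most barcodes carried markers of somatic types. Each stage is 1 library, so no test between stages or cell types is possible, and stage, dissected tissue and library cannot be told apart. Every interval below is a 95% interval of counting error and holds no spread between animals or between cells. A UMI (unique molecular identifier) stands for a captured RNA molecule. For a level, the UMIs of a gene were added up over a gate and divided by the gate's total UMIs, and given per 1000000 UMIs (CPM).

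CpG methylation is carried through cell division by DNMT1, which copies it onto the new strand, and by UHRF1, which binds hemimethylated CpGs after replication and brings DNMT1 to them. DNMT3A and DNMT3B add new methyl groups, with DNMT3L as a catalytically inactive partner in the mouse germline, while TET1, TET2 and TET3 oxidise methylcytosine. ZFP57, a KRAB zinc finger protein, binds methylated imprinting control regions and recruits the co-repressor TRIM28, which protects imprints in mouse embryos. In mouse and human fetuses, primordial germ cells lose most of their DNA methylation, imprints included, before new marks are laid down.

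The 8-week library held 14593 barcodes with a median of 5877 UMIs, and the 4-week library 8938 barcodes with a median of 7728. The libraries shared 38 barcode sequences. A cell was gated to a class when at least 3 of the class's markers were on, and cells that passed several gates (15.9% at 8 weeks, 10.3% at 4 weeks) were left out. The germ gate held 873 cells at 8 weeks and 479 at 4 weeks, with medians of 9548 and 13553 UMIs. At 8 weeks 6 somatic gates had at least 50 cells, and at 4 weeks 10 did. Within the germ gate, 73 cells at 8 weeks and 36 at 4 weeks had exactly 3 markers on, and 278 and 195 further cells had 2 markers on and stayed outside.

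The library labelled ovarian held few UMIs of FOXL2. Over the whole library, AMH, a gene of the supporting cells of the fetal testis, stood at 514 CPM at 8 weeks and 420 CPM at 4 weeks, and SOX9, which drives their fate, at 41.4 and 106 CPM. FOXL2, which marks pre-granulosa cells of the ovary, was at 1.55 CPM at 8 weeks and 1.03 CPM at 4 weeks. Only 22 cells at 8 weeks and 44 at 4 weeks passed 3 of the 6 pre-granulosa markers, and the class was not used as a gate. Cells are called below by the name of their gate, which rests on these markers alone.

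Among the 13 markers of the germ gate, NANOG stood at 288 CPM in germ-gated cells at 8 weeks and 341 CPM at 4 weeks, POU5F1 at 426 and 892 CPM and NANOS3 at 187 and 142 CPM. DPPA3, a primordial germ cell gene of the mouse, had 0 UMIs in the gate at 8 weeks. These genes chose the gate, so their levels describe it and do not test it. DPPA2, a pluripotency gene that was no gate marker, stood at 15.4 CPM in germ-gated cells at 8 weeks and 27.6 CPM at 4 weeks, against somatic medians of 0.182 and 0.0813 CPM. Markers of other types were also read in germ-gated cells. The 9 stroma markers summed to 417 CPM there at 8 weeks and 280 CPM at 4 weeks, against 5486 and 4317 CPM in the stroma gate.

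**Figure D1:**
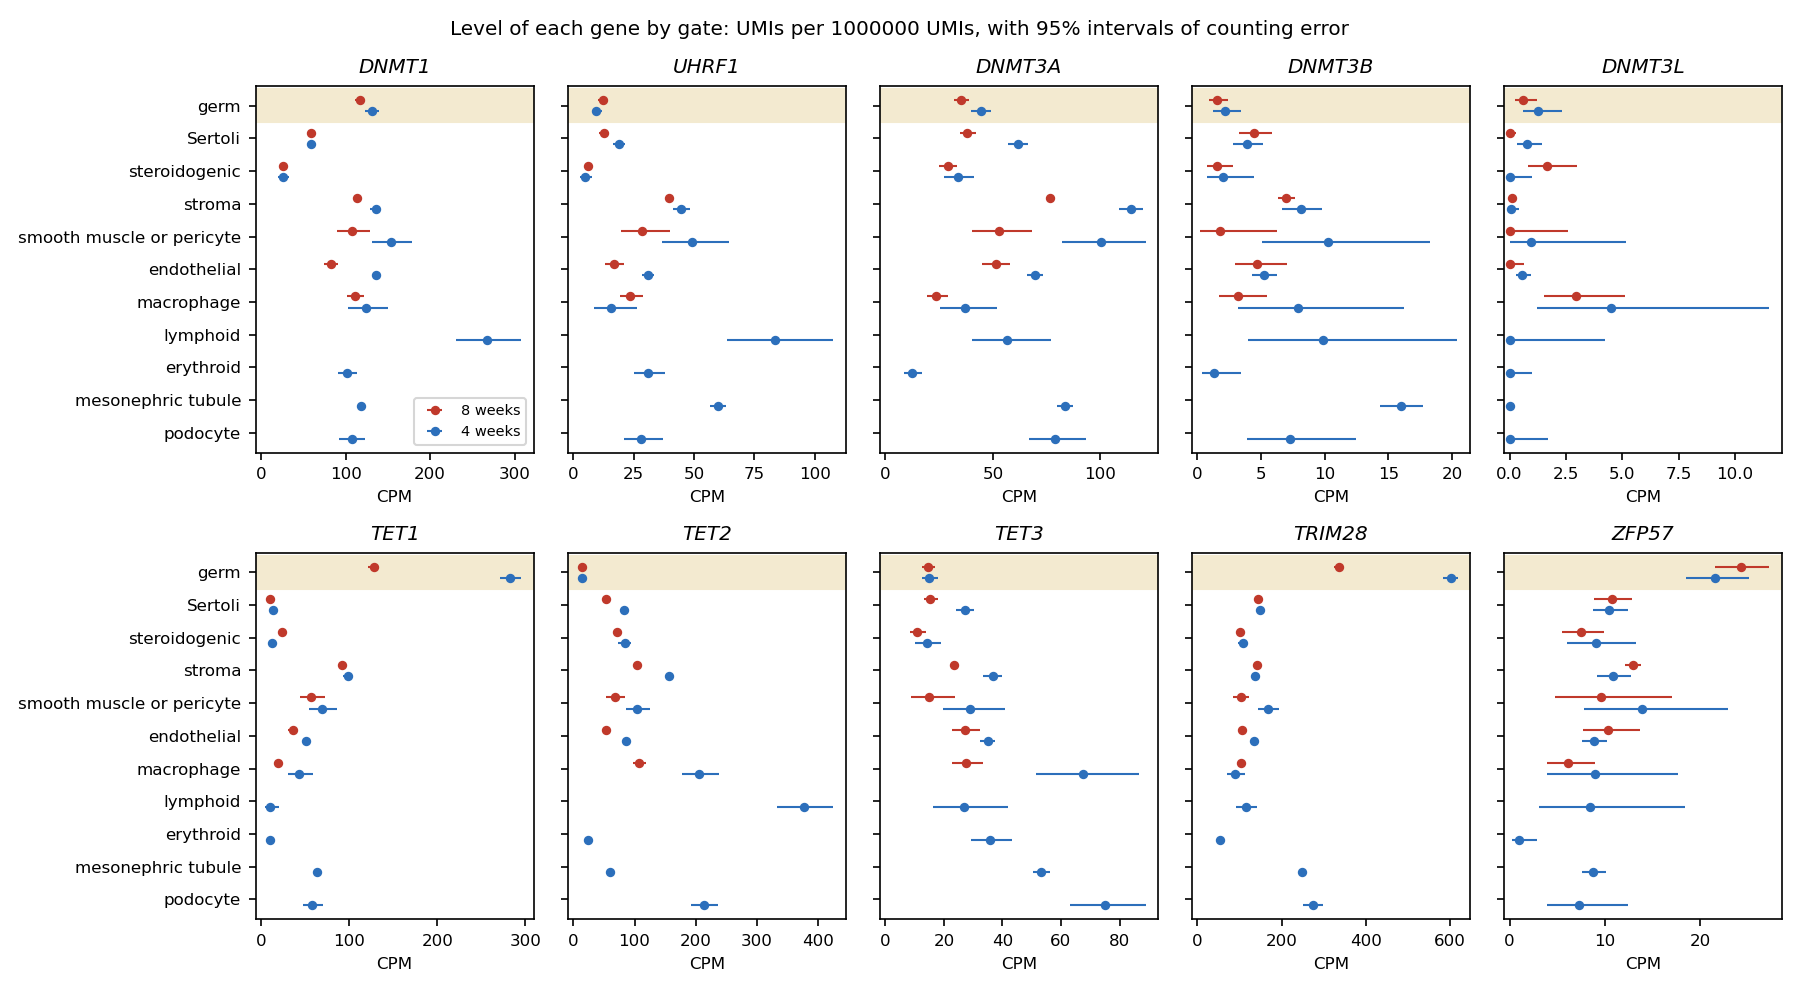
Level of each of the 10 genes in CPM (x axes, each with its own range) in every gate with at least 50 cells (rows), at 8 weeks (red) and 4 weeks (blue), with 95% intervals of counting error; a gene with 0 UMIs has a bar up to the level of 3 UMIs. In the shaded germ row, TET1, TRIM28 and ZFP57 lie to the right of the somatic rows and TET2 lies to the left of them.

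DNMT1, the maintenance methyltransferase, was higher in germ-gated cells than in 3 of 6 somatic gates at 8 weeks and 5 of 10 at 4 weeks, by intervals above 1, and the interval held 1 for 3 and 4 gates. It stood at 117 CPM (111 to 123) in germ-gated cells at 8 weeks and 131 CPM at 4 weeks. Somatic gates ranged from 25.6 CPM in steroidogenic cells to 113 CPM in stroma at 8 weeks, and from 25.98 CPM in steroidogenic cells to 267 CPM in lymphoid cells at 4 weeks. The germ level was above Sertoli-gated cells by 1.98-fold (1.80 to 2.18) at 8 weeks and 2.21-fold (2.003 to 2.43) at 4 weeks, but its interval over stroma held 1 in both libraries. At 4 weeks the lymphoid gate was the only gate with an interval below 1, at a ratio of germ over lymphoid of 0.491 (0.420 to 0.576). Among cycling cells alone (defined below), the germ level was lower than 3 of 5 somatic gates at 8 weeks and 7 of 8 at 4 weeks. Median-of-ratios scaling, which moved the erythroid gate by log2 -1.35, turned the germ over erythroid value round (log2 -1.22, against 0.37 on CPM).

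UHRF1, which brings DNMT1 to replicated DNA, was low in germ cells. Germ-gated cells held 12.3 CPM (145 UMIs) at 8 weeks and 9.61 CPM (76 UMIs) at 4 weeks, against 39.8 and 44.8 CPM in stroma. The ratio of germ over somatic cells had an interval below 1 for 4 of 6 gates at 8 weeks and 8 of 10 at 4 weeks. Of these 8, the erythroid value turned round among cells below the cycling level (log2 0.84) and the podocyte value with Leiden clusters (log2 0.32). Steroidogenic cells were the exception in both libraries, at 6.09 CPM at 8 weeks and 4.72 CPM at 4 weeks, with the germ gate 2.02-fold (1.41 to 2.94) and 2.03-fold (1.14 to 3.90) above them. Sertoli cells at 8 weeks (12.6 CPM) and macrophages at 4 weeks (15.7 CPM) had intervals that held 1.

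The proportion of the maintenance genes differed between gates. Germ-gated cells held 9.48 DNMT1 UMIs per UHRF1 UMI (7.98 to 11.3) at 8 weeks and 13.6 (10.8 to 17.5) at 4 weeks. Somatic gates held 2.85 in stroma to 4.92 in endothelial cells at 8 weeks, with no interval that reached the germ interval. At 4 weeks they held 1.98 in mesonephric tubule cells to 7.93 in macrophages, and the macrophage interval (4.53 to 15.0, from 14 UHRF1 UMIs) overlapped the germ interval. These ratios are over all cells of a gate, and gates differ in their share of cycling cells. Below the cycling level at 4 weeks, germ-gated cells held 106 DNMT1 and 11 UHRF1 UMIs. Macrophages held 47 and 2 and lymphoid cells 63 and 3, so the germ ratio was not the highest there, on few UHRF1 UMIs. Among cycling cells the counts were 931 and 65, 64 and 12, and 126 and 56. The part of cycling in the ratio was not tested.

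Of the de novo enzymes, DNMT3A was read in every gate and DNMT3B and DNMT3L were scarce. DNMT3A stood at 35.4 CPM in germ-gated cells at 8 weeks and 44.3 CPM at 4 weeks, against 76.7 and 114 CPM in stroma, which was the highest gate in both libraries. Its germ level was below 3 of 6 somatic gates at 8 weeks and 6 of 10 at 4 weeks, and above 2 gates in each (steroidogenic cells in both, macrophages at 8 weeks and erythroid cells at 4 weeks). The erythroid difference was log2 1.77 on CPM and 0.25 with median-of-ratios scaling. DNMT3B gave 18 UMIs in germ-gated cells at 8 weeks and 17 at 4 weeks, or 1.53 and 2.15 CPM. It was highest in stroma at 8 weeks (6.97 CPM) and in mesonephric tubule cells at 4 weeks (15.99 CPM), and its germ level was below 3 of 6 and 8 of 10 somatic gates.

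DNMT3L gave 7 UMIs in germ-gated cells at 8 weeks and 10 at 4 weeks. It did not reach the 50 UMIs summed over the compared gates that were required for a fold, with 37 at 8 weeks and 36 at 4 weeks. Its highest level was in macrophages in both libraries, at 2.93 CPM from 12 UMIs and 4.49 CPM from 4 UMIs. Its interval was above 1 over stroma and Sertoli cells at 8 weeks and over stroma and mesonephric tubule cells at 4 weeks, below 1 against macrophages at 8 weeks, and held 1 for the other 3 and 8 gates.

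TET1, which mouse embryonic stem cells and primordial germ cells express, was higher in germ-gated cells than in each somatic gate. It stood at 128 CPM (121 to 134) in germ-gated cells at 8 weeks and 283 CPM (271 to 295) at 4 weeks. Stroma came next in both libraries, at 91.3 and 98.4 CPM, so that the germ gate was 1.40-fold (1.32 to 1.48) and 2.87-fold (2.69 to 3.08) above it. Sertoli cells, which share the gonad with the germ cells, held 10.5 CPM at 8 weeks and 13.3 CPM at 4 weeks, 12.1-fold (10.02 to 14.8) and 21.2-fold (18.1 to 25.1) below the germ gate.

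TET2 showed the opposite order. Germ-gated cells held 15.0 CPM at 8 weeks and 14.2 CPM at 4 weeks, below each somatic gate in both libraries. Somatic levels ran from 54.0 CPM in Sertoli cells to 108 CPM in macrophages at 8 weeks, and from 24.8 CPM in erythroid cells to 376 CPM in lymphoid cells at 4 weeks. The erythroid difference was the smallest, and it turned round among cells below the cycling level (log2 1.47) and with cells of several gates kept (log2 0.24), while median-of-ratios scaling widened it to log2 -2.31. TET3 was at 14.6 and 14.9 CPM in germ-gated cells, below 3 of 6 somatic gates at 8 weeks and 9 of 10 at 4 weeks. In macrophages it was at 27.6 and 67.4 CPM. At 8 weeks its germ level was 1.33-fold (1.005 to 1.78) above steroidogenic cells.

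The make-up of the TET UMIs set the germ gate apart from each somatic gate, and the total did not. UMIs are not corrected for transcript features, so each share is compared between gates and not between genes. TET1 gave 81.2% (79.3 to 82.9) of the TET UMIs of germ-gated cells at 8 weeks and 90.7% (89.5 to 91.8) at 4 weeks. In somatic gates it gave 12.5% in macrophages to 41.9% in stroma at 8 weeks, and 2.40% in lymphoid cells to 36.0% in mesonephric tubule cells at 4 weeks. The summed TET level of germ-gated cells, 157 CPM at 8 weeks and 312 CPM at 4 weeks, lay within the somatic ranges of 79.9 to 218 CPM and 70.1 to 413 CPM.

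**Figure D2:**
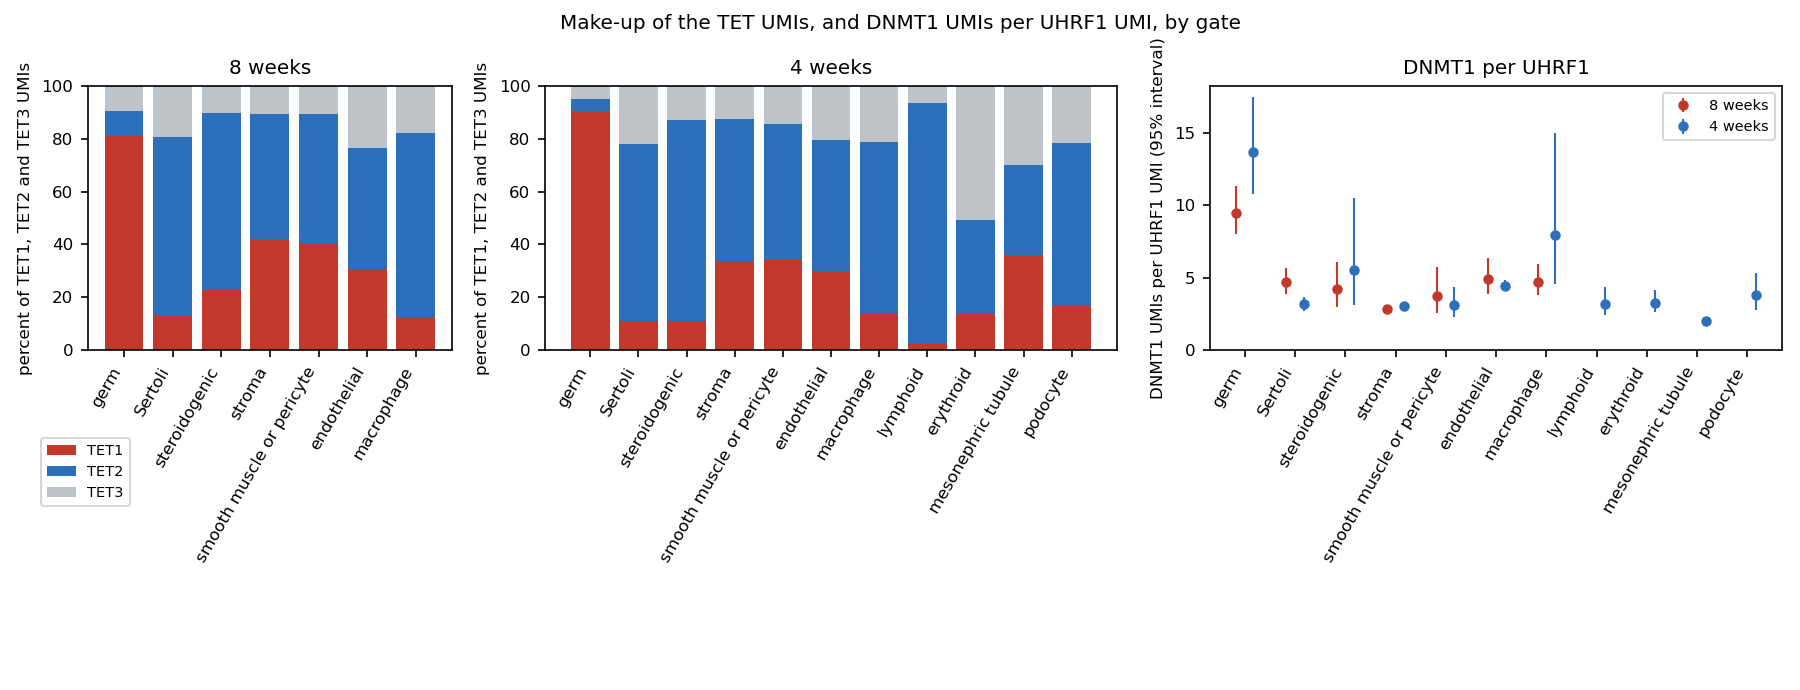
Left and middle: percent of the UMIs of TET1, TET2 and TET3 given by each gene, per gate, at 8 and 4 weeks. Right: DNMT1 UMIs per UHRF1 UMI by gate, with 95% intervals. Over all cells of a gate, germ-gated cells have the highest TET1 share (81.2% and 90.7%) and the highest DNMT1 count per UHRF1 UMI (9.48 and 13.6).

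TRIM28, the co-repressor of the KRAB zinc finger proteins, was highest in germ cells in both libraries. It stood at 336 CPM in germ-gated cells at 8 weeks and 601 CPM at 4 weeks, against 102 CPM in steroidogenic cells to 143 CPM in Sertoli cells at 8 weeks and 53.9 CPM in erythroid cells to 274 CPM in podocytes at 4 weeks. The narrowest ratios were 2.35-fold (2.21 to 2.49) over Sertoli cells at 8 weeks and 2.20-fold (1.9999 to 2.41) over podocytes at 4 weeks. Over erythroid cells the log2 value was 3.45 on CPM and 1.87 with median-of-ratios scaling.

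ZFP57, its imprint-binding partner, shared this order at lower counts. Germ-gated cells held 24.3 CPM (286 UMIs) at 8 weeks and 21.6 CPM (171 UMIs) at 4 weeks. Somatic levels ran from 6.11 CPM in macrophages to 12.9 CPM in stroma at 8 weeks, and from 0.993 CPM in erythroid cells to 13.9 CPM in smooth muscle or pericyte cells at 4 weeks. The germ level was above 6 of 6 and 9 of 10 gates, and its interval held 1 against smooth muscle or pericyte cells at 4 weeks (1.55, 0.915 to 2.84). Over erythroid cells, with 3 UMIs, the log2 value was 3.505 on CPM and 2.44 with median-of-ratios scaling.

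Counts of cells with a UMI, taken after each cell was thinned to 2000 UMIs, ordered the germ gate in the same way. A TET1 UMI was found in 22.4% of thinned germ-gated cells at 8 weeks and 37.5% at 4 weeks, against 6.53% and 9.49% of endothelial-gated cells, and before thinning in 58.0% and 76.6% of germ-gated cells, against 22.4% and 39.2% of endothelial-gated cells. Stroma, the nearest gate by level, held a TET1 UMI in 17.3% and 17.7% of thinned cells and in 43.9% and 53.2% of unthinned cells, with 1337 and 56 cells too shallow to thin. For TRIM28 the thinned shares were 45.3% and 64.7% of germ-gated cells, against 17.8% and 18.5% of endothelial-gated cells, and the unthinned shares were 83.3% and 91.0%, against 47.96% and 53.5%. A TET2 UMI was found in 1.10% of thinned germ-gated cells at 8 weeks and 1.09% at 4 weeks, against 13.1% and 16.04% of endothelial-gated cells, and before thinning in 12.03% and 10.4%, against 35.9% and 52.8%. The medians were 9548 and 13553 UMIs in germ-gated cells and 5692 and 7453 in endothelial-gated cells. Thinning left out 56 and 20 germ-gated cells and 82 and 66 endothelial-gated cells that were too shallow.

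Against the median somatic gate, 3 of the 9 genes measured (TET1, TRIM28 and ZFP57) were at least 2-fold higher in germ-gated cells at 8 weeks, where 21.3% of all genes were. The same 3 of 9 were higher at 4 weeks, where 21.5% of all genes were. TET2 was at least 2-fold lower at 8 weeks, 1 of 9 against 7.14% of all genes, and UHRF1, DNMT3B, TET2 and TET3 were at 4 weeks, 4 of 9 against 7.04%. At 4 weeks DNMT3B and TET3 were no longer past 2-fold with cells of several gates kept (-0.77 and -0.85). Nor were UHRF1 and DNMT3B among cells below the cycling level (-0.55 and -0.75), nor DNMT3B with Leiden clusters (-0.8). The difference on the log2(CPM + 1) scale was 2.06 and 2.57 for TET1, 1.68 and 2.14 for TRIM28, 1.20 and 1.19 for ZFP57 and -2.13 and -2.66 for TET2. The median of the 9 genes was -0.33 at 8 weeks and -0.56 at 4 weeks, beside 0.26 and 0.24 over all genes measured. ZFP57 was no longer past 2-fold with cells of several gates kept (0.80 at 8 weeks, 0.84 at 4 weeks), among cycling cells at 8 weeks (0.87) and with median-of-ratios scaling at 4 weeks (0.93).

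More of the germ-gated cells were cycling, at 59.0% at 8 weeks and 74.1% at 4 weeks, against 5.69% to 29.97% of the cells of somatic gates at 8 weeks and 1.44% to 42.9% at 4 weeks. A cell was counted as cycling from 30 UMIs per 10000 of 50 S, G2 and M phase genes. Of the germ-gated cells, 273 at 8 weeks and 133 at 4 weeks lay between 20 and 40 per 10000, near that cut, against 843 of 6616 and 109 of 1281 stroma cells. UHRF1 and DNMT1 follow the cell cycle in somatic cells, so the gates were compared again within cycling cells. UHRF1 stood at 15.6 CPM in cycling germ-gated cells at 8 weeks and 10.2 CPM at 4 weeks, below each of the 5 somatic gates (31.0 to 69.2 CPM) and 8 somatic gates (33.8 to 165 CPM) with at least 20 cycling cells. DNMT1 in cycling germ-gated cells was at 136 CPM at 8 weeks, with 3 of these 5 gates above it (somatic median 155 CPM). At 4 weeks it was at 145 CPM, with 7 of these 8 gates above it (somatic median 191 CPM). The cycle genes themselves summed to 6463 and 6807 CPM in cycling germ-gated cells, within the somatic ranges of 5010 to 7131 and 5141 to 8608 CPM.

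UHRF1 also differed less between cycling and other cells in the germ gate, though within overlapping intervals. Cycling over other germ-gated cells gave 2.48 (1.61 to 3.95) at 8 weeks and 1.39 (0.729 to 2.93) at 4 weeks. The lowest somatic ratios were 4.07 (3.72 to 4.45) in stroma at 8 weeks and 3.22 (2.74 to 3.79) in endothelial cells at 4 weeks, and the highest were 7.23 in macrophages at 8 weeks and 20.2 in lymphoid cells at 4 weeks, where the other lymphoid cells held 3 UMIs. The germ interval overlapped that of the lowest somatic gate in both libraries. The same ratio of DNMT1 was 1.70 (1.501 to 1.93) in germ-gated cells at 8 weeks, under the lowest somatic ratio of 1.84 with overlapping intervals, and 2.07 at 4 weeks, above the lowest somatic ratio of 1.79. The germ-gated cells below the cycling cut held more cycle-gene RNA than those of the somatic gates, at 2103 CPM against 1061 to 1446 CPM at 8 weeks and 2191 CPM against 742 to 1327 CPM at 4 weeks. Its part in the smaller UHRF1 ratio was not tested.

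TET3 was higher in cycling germ cells at 8 weeks, at 18.8 CPM in cycling and 6.77 CPM in other germ-gated cells, a ratio of 2.78 (1.85 to 4.34). Somatic ratios at 8 weeks ran from 0.621 to 1.13, and at 4 weeks the germ ratio was 0.923 (0.584 to 1.51). TRIM28 differed by 1.38-fold (1.29 to 1.49) and 1.18-fold (1.10 to 1.28) between cycling and other germ-gated cells, and TET1 by 1.13-fold and 1.12-fold.

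**Figure D3:**
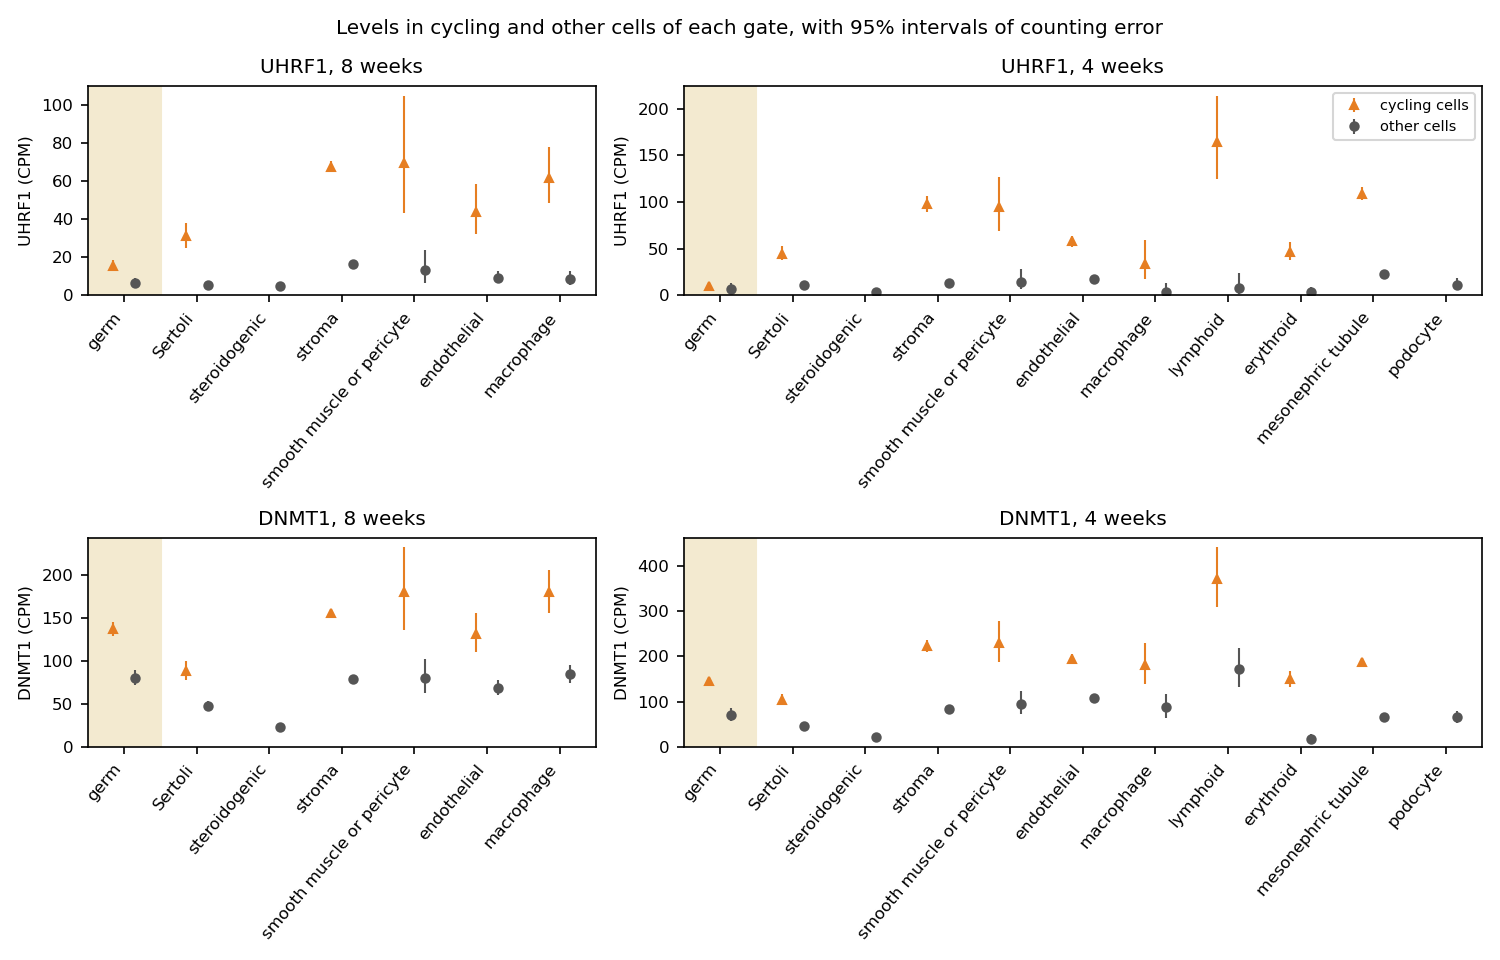
UHRF1 (top) and DNMT1 (bottom) in CPM, in cycling cells (triangles) and other cells (circles) of each gate at 8 weeks (left) and 4 weeks (right), with 95% intervals of counting error; subsets under 20 cells are not drawn. Cycling germ-gated cells (shaded) have UHRF1 at 15.6 and 10.2 CPM, under the cycling cells of each somatic gate. Their DNMT1 (136 and 145 CPM) lies within the somatic range, under 3 of 5 and 7 of 8 somatic gates.

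Between the stages, TET1 and TRIM28 were lower in the germ gate at 8 weeks. TET1 stood at 128 CPM at 8 weeks and 283 CPM at 4 weeks, a ratio of 0.451 (0.422 to 0.482). TRIM28 stood at 336 CPM at 8 weeks and 601 CPM at 4 weeks, a ratio of 0.558 (0.535 to 0.583). DNMT1 and DNMT3A were slightly lower, at 0.889 (0.820 to 0.965) and 0.800 (0.692 to 0.924), and the intervals of UHRF1, DNMT3B, DNMT3L, TET2, TET3 and ZFP57 held 1. TET1 was the only gene of the 8 measured that was at least 2-fold lower at 8 weeks, beside 5.61% of all genes, and 0 of 8 were at least 2-fold higher, beside 6.8%.

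Other markers moved in the germ gate between the stages too. Of the 9 stroma markers 8 were higher at 8 weeks (sum 417 against 280 CPM at 4 weeks), all 7 Sertoli markers were (314 against 214 CPM) and 8 of 9 macrophage markers were (27.5 against 8.09 CPM), while the 9 mesonephric tubule markers were all lower (54.3 against 145 CPM). The 13 germ markers summed to 2129 CPM at 8 weeks and 2560 CPM at 4 weeks. The part of these in the differences of TET1 and TRIM28 was not tested.

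TET1 was also lower at 8 weeks in 3 of the 6 somatic gates compared, by intervals below 1, and TRIM28 in 2. TET1 at 8 over 4 weeks was 0.452 (0.304 to 0.685) in macrophages, 0.703 (0.594 to 0.827) in endothelial cells and 0.928 (0.875 to 0.985) in stroma, and 1.956 (1.35 to 2.89) in steroidogenic cells. The germ log2 change in TET1 lay below that of 5 of the 6 gates, with differences of -2.12 (-2.65 to -1.58) from steroidogenic cells, -1.04 (-1.17 to -0.91) from stroma, -0.86 from smooth muscle or pericyte cells, -0.81 from Sertoli cells and -0.64 (-0.89 to -0.39) from endothelial cells. Its difference from macrophages was -0.00 (-0.57 to 0.56). These intervals cover counting error only. TRIM28 was 0.960 (0.896 to 1.03) in Sertoli cells and 1.04 (0.991 to 1.09) in stroma, but 0.613 (0.482 to 0.777) in smooth muscle or pericyte cells and 0.786 (0.713 to 0.864) in endothelial cells. TET2 was lower at 8 weeks in all 6 somatic gates compared and DNMT3A in 5 of them, with intervals below 1, while the TET2 interval in the germ gate held 1 (1.06, 0.833 to 1.36).

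Germ-gated cells were also split by DAZL, MAEL and DDX4, gate markers that germ cells of mouse and human switch on after they settle in the gonad. At 8 weeks 559 cells had at least 2 UMIs of them (and 1 per 10000) and 144 had 0, with 170 between. At 4 weeks 192 had at least 2 and 145 had 0, with 142 between. Cells with these genes were deeper, with medians of 14809 UMIs with and 4295 without at 8 weeks, and 19738 with and 5527 without at 4 weeks. At 8 weeks TRIM28 stood at 310 CPM in cells with and 531 CPM in cells without these genes, a ratio of 0.584 (0.528 to 0.647). At 4 weeks it stood at 604 CPM with and 545 CPM without, a ratio of 1.11 (1.02 to 1.21). The 8-week difference kept its direction among cells above the median UMI count of the gate (log2 -0.45, against -0.78 over all cells).

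The split changed what was seen between stages for TRIM28 and less so for TET1. In cells without DAZL, MAEL and DDX4, TRIM28 was at 531 CPM at 8 weeks and 545 CPM at 4 weeks, a ratio of 0.973 (0.861 to 1.10). In cells with them it was at 310 CPM at 8 weeks and 604 CPM at 4 weeks, a ratio of 0.513 (0.487 to 0.541). TET1 was lower at 8 weeks in both kinds of cell, at 0.575 (0.459 to 0.716) without and 0.461 (0.426 to 0.499) with these genes, and at 0.461 (0.427 to 0.498) among cycling cells.

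At 8 weeks 1 of the 8 genes measured was at least 2-fold higher in germ cells with DAZL, MAEL or DDX4, beside 8.19% of all genes, and 0 were lower, beside 3.23%. That gene was TET3, at 15.96 CPM with and 7.27 CPM without, but the lower value rests on 6 UMIs and the interval held 1 (2.19, 0.985 to 6.08). At 4 weeks 0 of 7 were higher, beside 2.34% of all genes, and 0 were lower, beside 0.902%.

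**Figure D4:**
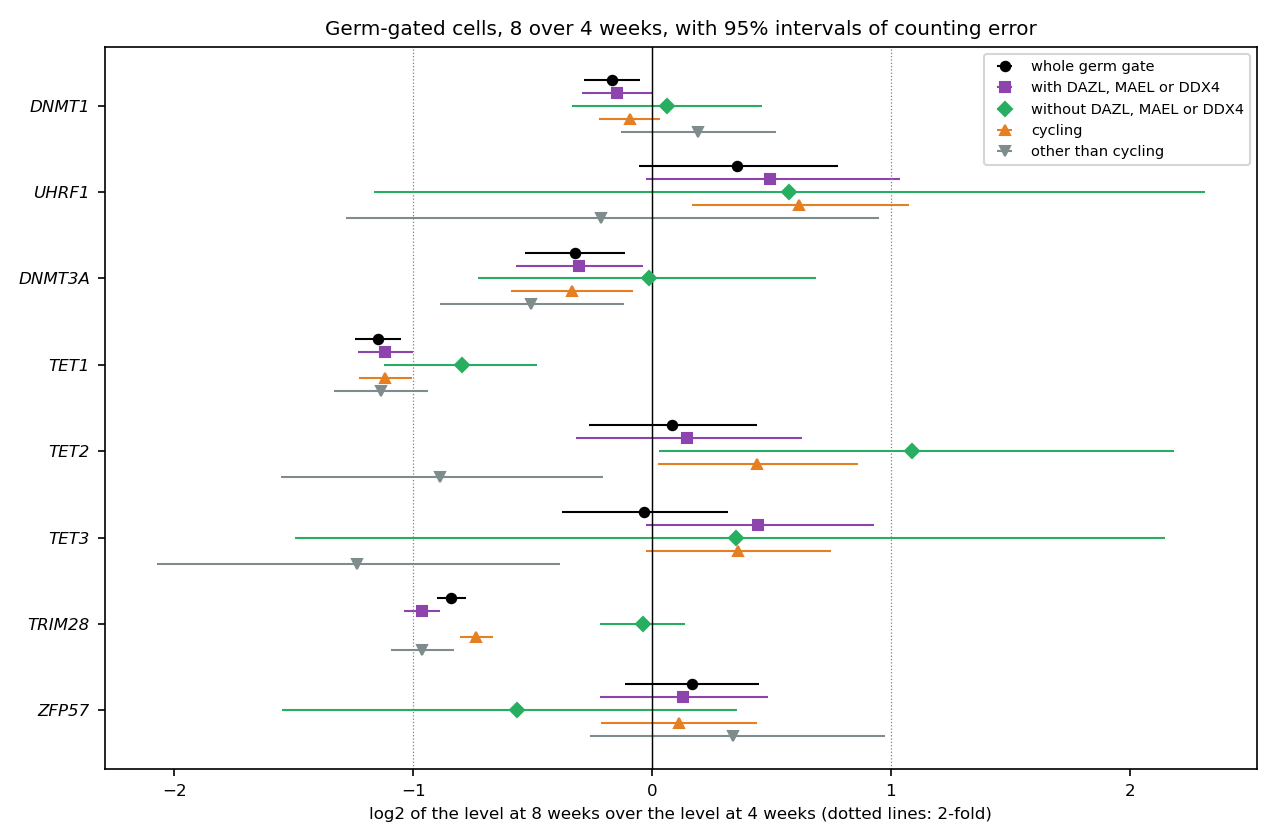
Log2 of the level at 8 weeks over 4 weeks in germ-gated cells, for the 8 genes measured, over the whole gate and over 4 subsets of its cells, with 95% intervals of counting error. TET1 and TRIM28 lie left of 0 in each subset. The TRIM28 interval reaches across 0 in the cells without DAZL, MAEL or DDX4 (ratio 0.973, 0.861 to 1.10).

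Of 75 other genes that act with these 10, 74 were in the files and 70 were measured. Against the median somatic gate, 21 of the 70 were at least 2-fold higher in germ-gated cells at 8 weeks and 17 at 4 weeks, beside the 21.3% and 21.5% of all genes, and 4 at 8 weeks and 8 at 4 weeks were at least 2-fold lower, beside 7.14% and 7.04%. Of the 7 partners of maintenance, 4 were higher past 2-fold at 8 weeks and 3 at 4 weeks, and 0 were lower in either library, beside the same shares of all genes. Among them HELLS, a chromatin remodeller needed for full methylation, stood at 501 CPM in germ-gated cells at 8 weeks and 1233 CPM at 4 weeks, against somatic medians of 45.4 and 61.8 CPM. Its partner CDCA7 stood at 26.4 and 24.0 CPM in germ-gated cells, against 3.73 and 2.94 CPM.

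Among the oxidation and base excision genes 4 of 15 were higher and 3 lower at 8 weeks, beside 21.3% and 7.14% of all genes, and 3 were higher and 3 lower at 4 weeks, beside 21.5% and 7.04%. The counts of higher genes are near those shares. UNG, a uracil glycosylase, was at 120 and 123 CPM in germ-gated cells against 25.2 and 23.1 CPM, and PARP1 and LIG3, which act in strand break repair, were also past 2-fold in both libraries. GADD45A, a stress response gene, and OGT, the sugar transferase that binds TET proteins, were at least 2-fold lower in both, at 72.1 and 69.0 CPM against 248 and 173 CPM for GADD45A. TDG, the glycosylase that removes oxidised methylcytosine products, was lower past 2-fold at 4 weeks, at 27.1 CPM in germ-gated cells against 59.2 CPM; it was named after its values were seen.

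Of the 15 genes of KRAB zinc finger repression, 3 were at least 2-fold higher in both libraries, near the 21.3% and 21.5% of all genes. They were MORC2, CBX1 and CBX3, with CBX3, a heterochromatin protein, at 651 and 449 CPM in germ-gated cells against 161 and 182 CPM. At 4 weeks 2 genes of the list were at least 2-fold lower, beside 7.04% of all genes, and at 8 weeks 0 were, beside 7.14%. The 2 were ZNF445 (log2 -1.83) and EHMT2 (log2 -1.63), named after their values were seen. In the list of germline reprogramming 5 of 6 were higher in both libraries, beside 21.3% and 21.5% of all genes. Among them were TFAP2C, PRDM14, DPPA2 and DPPA4, but TFAP2C and PRDM14 are markers of the gate. Of the 11 genes of recruitment to chromatin, 3 were higher and 1 lower past 2-fold at 8 weeks, and 1 and 1 at 4 weeks. CXXC4, a CXXC protein that binds TET2 in human and mouse cells, was lower in both, at 7.30 and 4.17 CPM in germ-gated cells against 29.0 and 24.9 CPM. Of the 8 methyl-CpG readers, 1 was higher in each library, and 0 at 8 weeks and 2 at 4 weeks were lower. Both lists stand beside 21.3% and 21.5% of all genes higher, and 7.14% and 7.04% lower. The higher reader was MBD2, at 77.3 and 123 CPM against 34.9 and 54.0 CPM. The 2 lower were ZBTB38 (log2 -1.45) and ZBTB4 (log2 -1.44), named after their values were seen.

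Between stages, 2 of 68 pathway genes were at least 2-fold higher in germ-gated cells at 8 weeks, beside 6.8% of all genes, and 5 were lower, beside 5.61%. These are 2.94% and 7.35% of the 68. KDM1B, a histone demethylase needed for maternal imprints in the mouse oocyte, stood at 22.2 CPM at 8 weeks and 9.74 CPM at 4 weeks, and CDCA7L at 78.3 and 36.7 CPM. UHRF2, the paralogue of UHRF1, was the furthest apart of those lower, at 81.6 CPM at 8 weeks and 265 CPM at 4 weeks (0.308, 0.285 to 0.333). HELLS was at 0.406 (0.393 to 0.419), and CBX1, DPPA4 and PRDM14 were also lower.

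**Figure D5:**
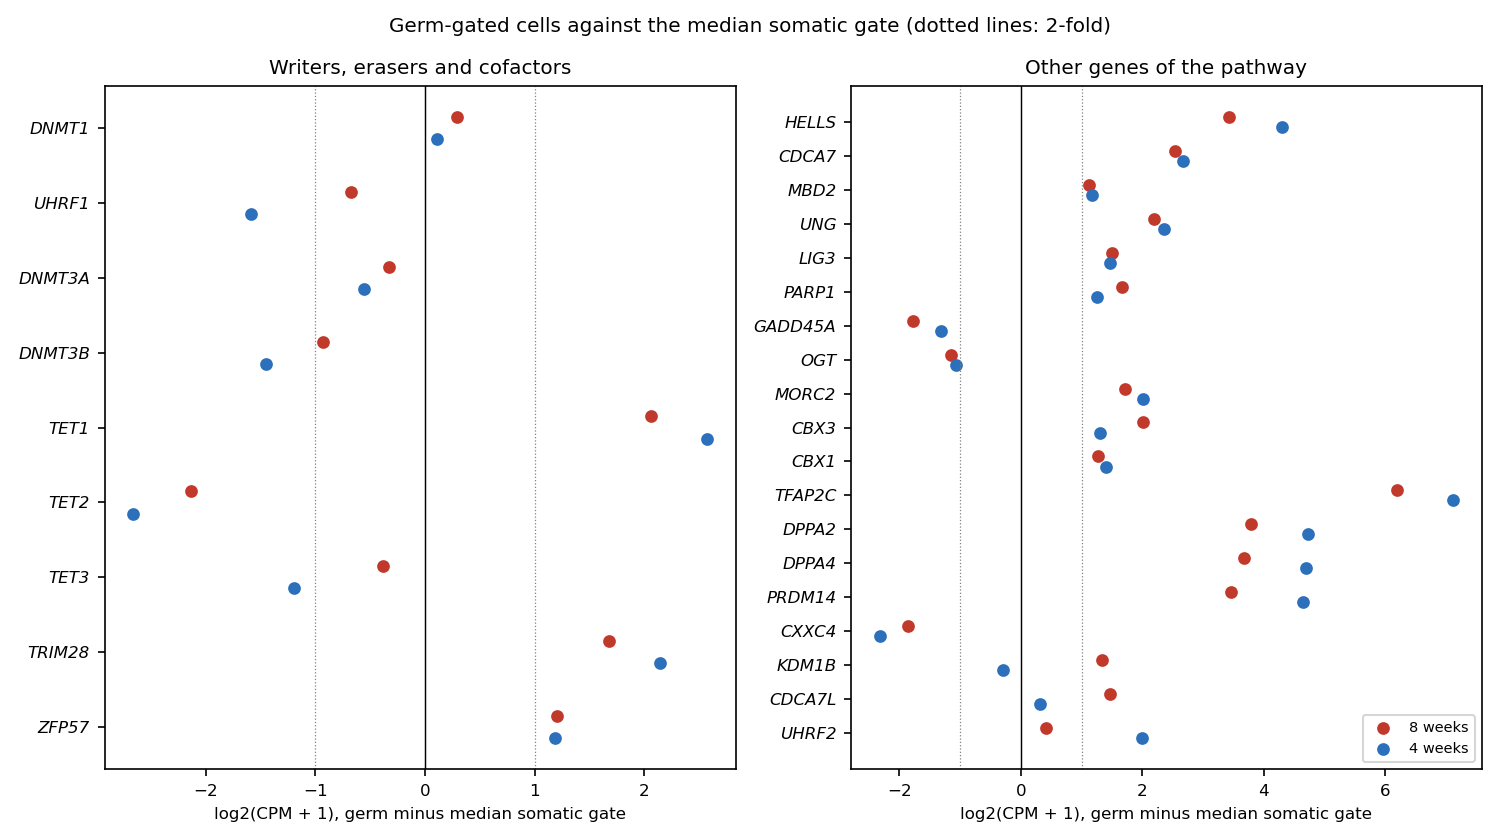
Difference in log2(CPM + 1) between germ-gated cells and the median somatic gate at 8 weeks (red) and 4 weeks (blue), for the 9 genes measured (left) and the named genes that act with them (right); dotted lines mark 2-fold. TET1, TRIM28 and ZFP57 lie right of the 2-fold line in both libraries and TET2 lies left of it.

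Across the 18 pairs of gate and library, the genes whose log2(CPM + 1) followed each gene most closely were found among 15046 genes with at least 10 CPM in some gate. These are descriptions over points that share libraries and depth. TET1 was followed by ARHGAP6 (Pearson r 0.92), SERGEF and FAM171B, and TRIM28 by ZXDC (0.95), NR6A1 and POLDIP3. ZFP57 was followed by NOL11 (0.97), MSL3 and ZNF35, DNMT1 by SMC1A (0.95), FOXM1 and RAD18, and UHRF1 by TMPO (0.87), SUZ12 and DEK. DNMT3A was followed by KHDRBS1 (0.96), FTO and STAU2, DNMT3B by DCAF10 (0.91), TET2 by SUN2 (0.93) and TET3 by SPOPL (0.85).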

How the data were processed

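Single-cell RNA was measured in 2 libraries, 1 per stage. Per the labels' protocols the libraries were made with a DNBelab C series droplet kit, whereas the deposited barcodes have the form of 10x barcodes. The deposited matrices hold counts, whole UMIs per gene and cell, and name the counting tool as Cell Ranger, version 7.1.0 (per the file headers) or 2.1.1 (per the submitters' processing notes). Not given in the sources used here were the genome build, the annotation and the intron setting. The files of features and barcodes that the authors deposited hold names only. Of 38517 features, 16536 had a symbol as deposited, and 768 further identifiers were named from a RefSeq gene table (EquAss-T2T_v2). All 10 genes matched by deposited symbols.

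A marker was on in a cell with at least 1 UMI and a level per 10000 UMIs of at least 10% of that marker's 99.5th percentile over all cells. A class needed 3 markers on, from 98 markers of 12 classes. The level was set after the data were seen, and so was the choice to leave pre-granulosa markers out of the gates. Cells in several gates were left out as possible doublets, and no doublet caller was run. UMIs were summed per gate and divided by the gate's total. Ratios have exact conditional binomial intervals, and levels exact Poisson intervals. A 2-fold call used log2(CPM + 1) and genes with at least 50 UMIs over the compared gates. The median somatic gate is the median CPM over somatic gates with at least 50 cells. Genes that act with the 10 were named when at least 2-fold apart in both libraries in the same direction, or at least 2-fold apart between stages, up to 4 per list or direction. The 10 genes and all lists were chosen with earlier results of these data known. Python 3.11.15, numpy 2.4.6, scipy 1.17.1, pandas 2.3.3, scikit-learn 1.9.0, leidenalg 0.10.2 and matplotlib 3.10.9 were used. The ratio, its interval and the 2-fold call were tested on counts simulated from a Poisson model. Alternatives changed the marker level, the gates (Leiden clusters), the scaling, the UMI minimum, the cell cycle make-up and the cells kept.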

Additional observations from a re-analysis of the deposited data

Results flagged for a closer look

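TET1 differed in direction between gates when 8 weeks was set over 4 weeks. Its log2 ratio was -1.15 in germ-gated cells, -1.14 in macrophages, -0.51 in endothelial cells and -0.11 in stroma, and 0.97 in steroidogenic cells. The differences of the germ gate from each gate are given above with intervals of counting error, and with 1 library per stage the difference between gates was not tested over animals.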

How the results depend on the processing

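Ratios of germ cells to somatic gates were recomputed under 10 other settings, stage ratios under 12, the germ cell split under 6 and shares of cells under 3. Cycling cells only gave 130 of 160 gate ratios and 60 of 70 stage values. Of the ratios to single somatic gates past 2-fold, 959 of 961 values kept their sign. So did 120 of 120 against the median somatic gate and 60 of 61 between stages. Between germ cells with and without DAZL, MAEL and DDX4, 18 of 18 did. In that order, 98, 12, 6 and 3 of the kept signs come from dropping the UMI minimum, which cannot change a ratio. Of the first 3 kinds, a further 98, 12 and 6 come from leaving out shared barcodes. That setting kept 870 of 873 and 478 of 479 germ-gated cells and could change little. The 120 values include DNMT3L at 4 weeks (log2 1.13), which had too few UMIs for a fold. Sizes held less often than signs. Within counting error of the reported value were 1143 of 1570 values over single gates, 117 of 200 over the median gate and 608 of 710 between stages. For the germ cell split 113 of 120 were, and for shares of cells 13 of 60. Taking the mean over cells moved 57 of 160 single-gate ratios, 12 of 20 median-gate values and 25 of 70 stage values further than that. UHRF1 in germ over erythroid cells at 4 weeks was log2 0.84 below the cycling level (-1.60 as reported), UHRF1 in germ over podocyte cells was 0.32 with Leiden clusters (-1.45), and DNMT3B at 8 over 4 weeks in macrophages was 0.080 among cycling cells (-1.085). The genes at least 2-fold lower in germ cells at 8 weeks numbered 3 among cycling cells, 3 below the cycling level and 2 with median-of-ratios scaling, against 1. At 4 weeks they numbered 2 with cells of several gates kept, 2 below the cycling level and 3 with Leiden clusters, against 4. Those lower at 8 than at 4 weeks numbered 2 below the cycling level, against 1. Of the genes that act with them, 3 were lower at 4 weeks with cells of several gates kept, against 8, and 7 were lower at 8 weeks with Leiden clusters and 8 with median-of-ratios scaling, against 4. The cause was not tested. Median-of-ratios scaling moved the germ gate by log2 0.27 at 8 weeks and 0.25 at 4 weeks, and the erythroid gate at 4 weeks by -1.35, the largest move of any gate. Keeping cells of several gates, cycling cells only, the germ cell split between stages and a pre-granulosa class were chosen after seeing the data. Adding that class moved the 18 log2 values against the median somatic gate by at most 0.026. Only 4 cells at 8 weeks and 8 at 4 weeks passed it alone, under the minimum of 50. The class therefore did not enter the somatic median, and the germ gate kept 868 of 873 and 479 of 479 cells. The small move cannot show how pre-granulosa cells would bear on the results. No paired analysis was possible because each stage has 1 library. UHRF1, DNMT3B, DNMT3L, TET2 and TET3 rest on few UMIs in germ cells.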

Other observations

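Of the genes of cell division, 10 of 26 S phase genes and 11 of 24 G2 and M phase genes were at least 2-fold higher in germ-gated cells than in the median somatic gate at 8 weeks, and 11 of 26 and 11 of 24 were at 4 weeks, beside 21.3% and 21.5% of all genes. In both libraries 0 were lower, beside 7.14% and 7.04% of all genes. These are the 50 genes that defined cycling cells above, so the counts are not separate from the shares of cycling cells. Germ cells that also passed a somatic gate numbered 315 at 8 weeks and 169 at 4 weeks, with medians of 26007 and 34837 UMIs, against 9548 and 13553 UMIs in the germ gate. They entered the comparisons above only in the setting where cells of several gates were kept.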
